A study of Peniophora incarnata with 12 samples.

Results

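Cellulases and beta-glucosidases are the hydrolases that cut cellulose down to glucose. In the transcriptome of Peniophora incarnata they were 36 of 16059 genes, taken as all genes whose database description names an endoglucanase, an endo-beta-1,4-glucanase, an exoglucanase, a cellobiohydrolase or a beta-glucosidase. Descriptions of 1,3-beta or 1,6-beta enzymes, of polysaccharide monooxygenases and of Endoglucanase-4 were left out. Of the 36, 34 carried the annotation term extracellular region, 32 the term for cellulose breakdown and 16 that for cellulose binding, the latter in all cellobiohydrolases and in no beta-glucosidase. The 36 genes were 6 cellobiohydrolases, 17 endoglucanases and 13 beta-glucosidases. As a white-rot basidiomycete this fungus decomposes the lignin of wood together with its polysaccharides. Mycelium of the wild-type strain T-7 grew for 30 days in the dark, without shaking, on 60-mesh powder of rice straw, of poplar wood or of Chinese fir wood, with PDA (potato dextrose agar, a sugar-rich laboratory medium) as control. There were 3 biological replicates per material and 4 materials, poly(A) RNA was sequenced from stranded libraries, and hardwood, softwood and grass straw were each represented by 1 material. Values are FPKM, reads scaled to the length of the gene and to the reads of the library, and replicates are always listed in the order 1, 2 and 3.

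Cellulose is broken down by enzymes that act one after another. Endoglucanases cut inside the glucan chain and make new ends, cellobiohydrolases travel along the chain from an end and release the disaccharide cellobiose, and beta-glucosidases split cellobiose into glucose. Lytic polysaccharide monooxygenases open the crystalline surface by oxidation, and cellobiose dehydrogenase can pass electrons to them. In many fungi the genes of these enzymes are held down by glucose and are turned on by plant polysaccharides or the oligosaccharides released from them.

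The libraries held 23398461 to 31132066 reads, worked back from the steps of the FPKM values, so that in a gene of 1000 bp a level of 1 FPKM stood for 23.4 to 31.1 reads. Of the 36 genes, 34 reached 1 FPKM in at least 3 libraries and were tested with 13974 genes in all. The endoglucanase genes A01733 (egl5) and A13498 (eglD) were not tested: A01733 lay between 0 and 1.82 FPKM, and A13498 had 3 reads in all 12 libraries together. A01735 (egl5) reached 1 FPKM on rice straw alone and therefore passed the filter through the group in which it was high. A15209 (eglD) also needed its rice straw libraries to pass. Elsewhere it reached 1 FPKM only in poplar wood replicate 2 (1.54) and Chinese fir wood replicate 2 (1.20). The poplar wood libraries differed most among themselves, with correlations of 0.865 to 0.950 over tested genes against at least 0.967 within every other group. Chinese fir wood replicate 1, rice straw replicate 3 and PDA replicate 2 came close to weighted sums of the other libraries in their group, where the chi-square was 5.84, 7.64 and 4.93 per gene against 30.0 to 60.5 for the other libraries of these groups. These are called the 3 intermediate libraries, and results are also given without them. The labels call all libraries biological replicates, and whether these 3 are independent of the others in their group was not tested. If they are not, n is below 3 in those groups, and the SDs, SEs and p-values are too small. Genes with chitin synthase in their description, taken as a marker of growing hyphae, were all above 1 FPKM in at least 1 library (20 of 20). They summed to 1132 to 1173 FPKM on PDA and 1249 to 1272 on Chinese fir wood. Their sums were 1404 to 1469 on poplar wood and 1612 to 1882 on rice straw. The list includes regulators and export chaperones, so these are not sums of synthases alone. The regulators A17143 and A09377 were higher on rice straw than on PDA, and the regulators A03870 and A13668 were lower. Hydrophobins are coat proteins of aerial hyphae. The 5 genes with that word in their description summed to 56.1 to 70.5 FPKM on rice straw and 31.7 to 66.5 on PDA. Their sums were 37.5 to 48.6 on poplar wood and 20.4 to 22.2 on Chinese fir wood. Descriptions of fruiting body or spore proteins were found for 19 genes, none at 0 throughout. They summed to 234 to 247 FPKM on PDA and 206 to 236 on Chinese fir wood. Their sums were 403 to 434 on rice straw and 277 to 621 on poplar wood. Most are described as SC3 or SC1, and whether they mark fruiting was not tested. A09953 (SC3) alone had 73.4, 120 and 347 FPKM on poplar wood and 11.5, 9.88 and 10.7 on PDA. Of 16 tested genes, all rice straw libraries were above all PDA libraries in 7 and below in 2. On poplar wood these numbers were 2 and 3, and on Chinese fir wood 2 and 8. The part of growth stage in the results below was not tested.

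Rice straw was the material on which these genes were high. Summed over the 36 genes the level was 963, 1012 and 997 FPKM on rice straw. It was 247, 237 and 236 FPKM on PDA, 252, 273 and 236 on Chinese fir wood and 256, 373 and 237 on poplar wood. Every rice straw library lay above every other library, and the 3 other groups overlapped. The means were 991 ± 25.2 (SD, n = 3), 240.0 ± 5.79, 254 ± 18.7 and 288 ± 73.5 FPKM in the same order. Among the classes, the cellobiohydrolases had 9.45 times their PDA level on rice straw, the endoglucanases 5.08 times and the beta-glucosidases 3.07 times. These ratios of sums lean on the most abundant genes. On rice straw A15830 (cel3) made up 49.9% of the cellobiohydrolase sum, A09811 29.4% of the endoglucanase sum and A17008 23.6% of the beta-glucosidase sum. The reads of the 36 genes made up 0.269% to 0.277% of the worked-back total of a rice straw library. In any other library they made up 0.0673% to 0.104% of that total. Because FPKM is scaled to the reads of each library, a lower level means a smaller share of the reads. The amount of mycelium and of RNA per hypha cannot be read from these values. Whether all hyphae or only some of them changed cannot be told either.

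**Figure D1:**
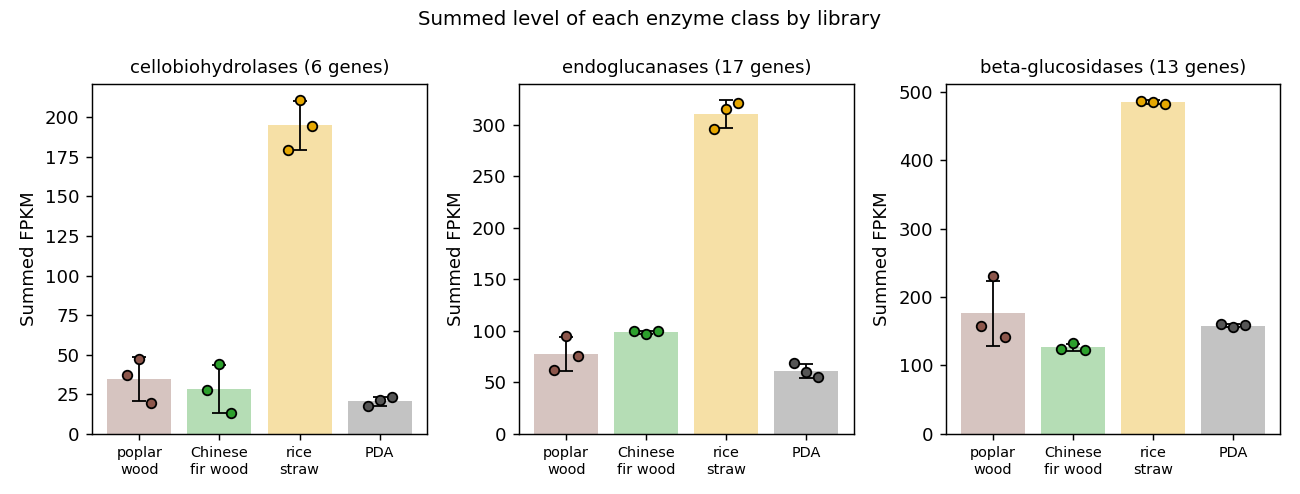
Summed FPKM of the 6 cellobiohydrolases, 17 endoglucanases and 13 beta-glucosidases in each library (points), with the group mean (bar) and SD (error bar, n = 3). On rice straw the sums were 195 ± 15.6, 311 ± 13.3 and 485 ± 2.82 FPKM, above every library of the other groups in each class.

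Counted over the set, growth on rice straw against PDA raised 23 of the 34 tested genes and lowered 2, where over all 13974 tested genes 6.81% were called higher and 14.1% lower by the same rule (limma, with p-values adjusted by Benjamini-Hochberg across the tested genes and under 0.05, and a log2 fold change of 1 or more in size). Every rice straw library was above every library of the 3 other groups in 22 members, and in 8.49% of all tested genes. By class, 5 of 6 cellobiohydrolases, 10 of 15 tested endoglucanases and 8 of 13 beta-glucosidases rose. Without the eglD genes, 7 of 11 tested endoglucanases rose and 1 fell. A01735 and A15209, which passed the filter only with rice straw, were among the 23. Without the filter the count that rose was also 23. The median log2 fold change of the 34 was 1.88, against -0.25 over all tested genes. Every rice straw library exceeded every PDA library in 26 of the 34 and was below in 2, against 20.9% and 43.9% of all tested genes. Without the eglD and agdC genes 20 of 29 rose and 2 fell. The count that rose was 22 without the intermediate libraries and 22 or 23 with any 1 library left out, and 22 of the 23 calls held in each of the 19 alternatives.

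On poplar wood against PDA 7 of 34 rose and 2 fell, where 8.3% of all tested genes were called higher and 17.1% lower. All poplar wood libraries were above all PDA libraries in 12 members and below in 7, against 17.1% and 30.8% of all tested genes. The median was 0.49, against -0.18 over all tested genes. The 7 were eglB A09810, eglD A14936 and A03217, cbh1 A03231, bglL A11104 and both BGL1B genes, and those that fell were agdC and bglL A13729. Of the 7, A09810 and A06070 were called in each alternative, and the number that rose was 3 without the intermediate libraries, 2 without poplar wood replicate 2, 3 without PDA replicate 1, 4 in a fit of these 2 groups alone, and 12 with a pseudocount of 0.1 or with voom on the worked-back reads. On Chinese fir wood against PDA 6 of 34 rose and 3 fell, where 5.91% of all tested genes were called higher and 24.5% lower. All Chinese fir wood libraries were above all PDA libraries in 10 members and below in 8, against 14.2% and 56.7% of all tested genes. The median was 0.20, against -0.51 over all tested genes. The 6 were the 3 eglB genes, eglD A14936 and A03217, and BGL1B A06070, and eglD A10570, agdC and bglL A13729 fell. Without the intermediate libraries 3 rose and 1 fell, without Chinese fir wood replicate 2 only 3 rose, and median-of-ratios scaling gave 9 and 2. The 3 comparisons share the PDA libraries, so their results are not independent of each other.

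**Figure D2:**
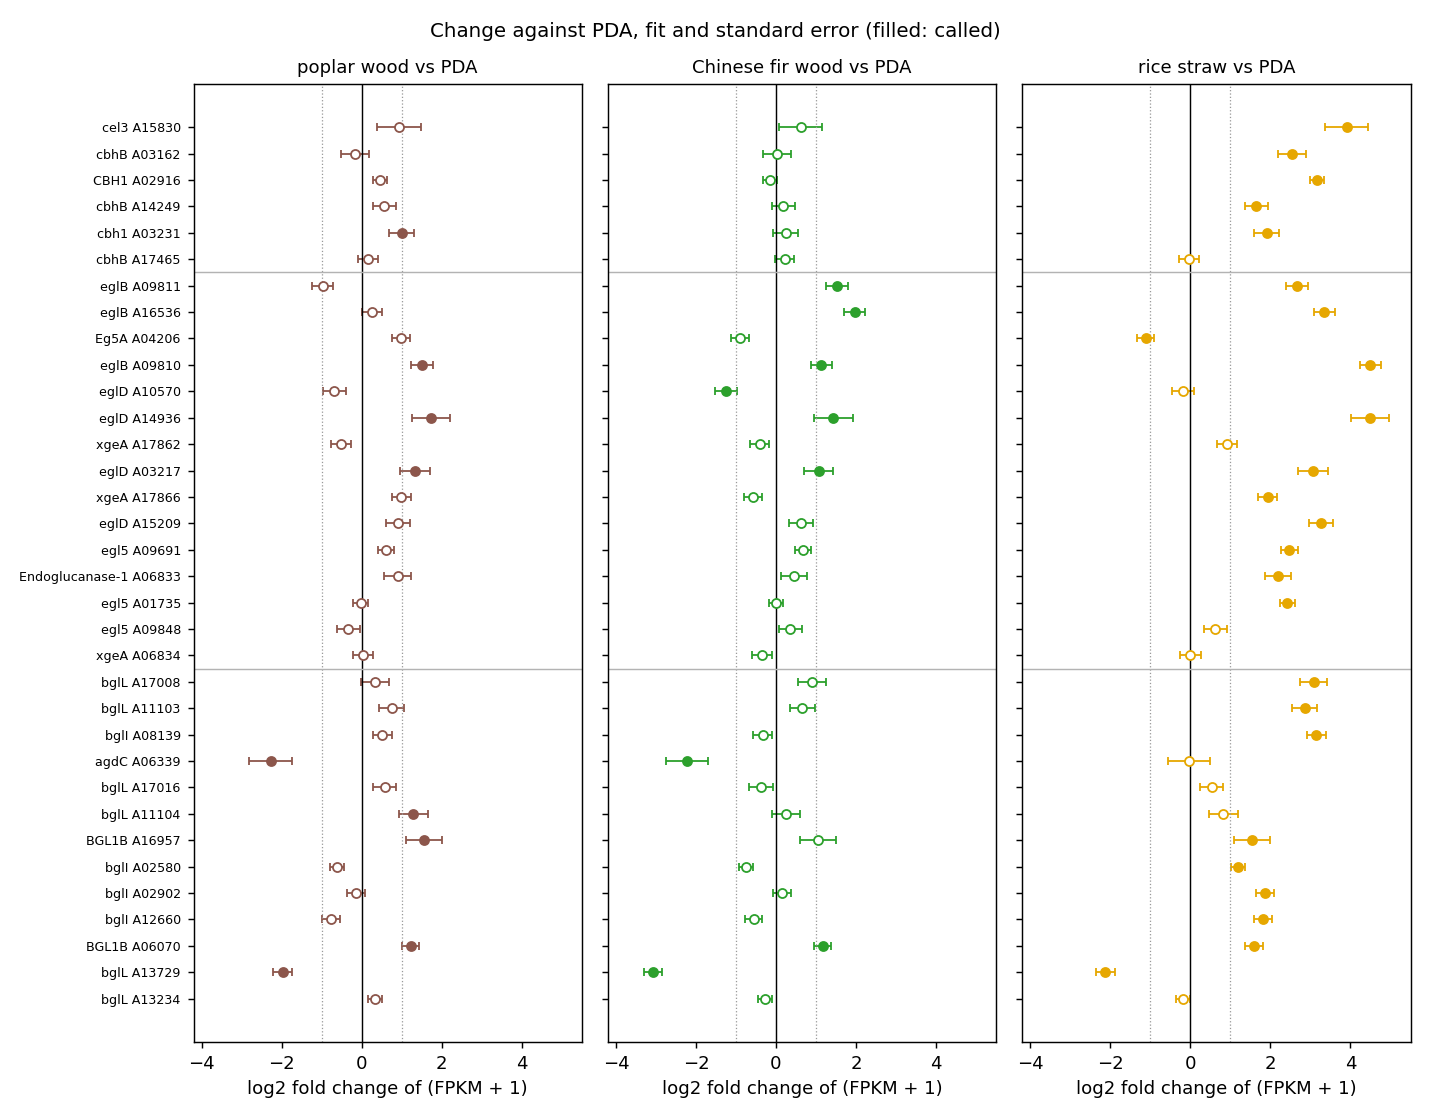
Log2 fold change of (FPKM + 1) against PDA with its standard error for the 34 tested genes on rice straw and on both woods. Filled points were called, 25 on rice straw and 9 on either wood, and dotted lines mark a change of 1 in either direction.

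The plant materials were also compared directly. On rice straw 21 of 34 genes were higher than on poplar wood and 1, Eg5A, was lower, where 14.4% of all tested genes were called higher on rice straw and 14.4% lower. Against Chinese fir wood 24 of 34 were higher on rice straw and 0 lower, where 14.2% of all tested genes were called higher on rice straw and 5.7% lower. All Chinese fir wood libraries were below all rice straw libraries in 27 members and above in 1, against 40.4% and 18.1% of all tested genes. The count of 0 higher on Chinese fir wood was also 0 at an unadjusted p under 0.05 in limma and 0 with voom. For poplar wood against rice straw the members were 24 below and 2 above, against 23.8% and 25.9%. Differences from poplar wood on the log2(FPKM + 1) scale, which compresses those of low genes, included eglB A09811 (-3.64 for poplar wood against rice straw) and A16536 (-3.09). From Chinese fir wood they included bglI A08139 (-3.48 for Chinese fir wood against rice straw), eglB A09810 (-3.37) and CBH1 A02916 (-3.32). Without the intermediate libraries the numbers higher on rice straw were 19 and 16. Those lost were A06833 and A14249 for poplar wood, and A03217, A06339, A06833, A09811, A10570, A14249, A16536 and A17862 for Chinese fir wood. A14249 was also lost against poplar wood without poplar wood replicate 3, and A09811 and A10570 against Chinese fir wood after median-of-ratios scaling.

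Poplar and Chinese fir wood were called different in 6 of the 34 genes. On poplar wood 4 were higher (Eg5A, xgeA A17866, and bglL A13729 and A11104) and 2 lower (eglB A09811 and A16536), where 17.5% of all tested genes were called higher and 6.73% lower. After median-of-ratios scaling 2 were higher and 2 lower, and the number higher was 2 without poplar wood replicate 2 and 7 without poplar wood replicate 3. Across the 4 groups 32 of the 34 passed the F test of the limma fit (adjusted p under 0.05), as did 74% of all tested genes. A17465 (cbhB) and A06834 (xgeA) did not pass it. By mean level 25 of the 36 were highest on rice straw, 6 on poplar wood, 4 on PDA and 1 on Chinese fir wood, against 20.8%, 31.3%, 37% and 10.8% of all tested genes.

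The cellobiohydrolases were raised on rice straw and not called on Chinese fir wood. The most abundant was cel3 (A15830), described as Exoglucanase 3; in fungi, proteins of this kind cut from the non-reducing end of the chain. It stood at 88.3, 110.4 and 93.1 FPKM on rice straw, 4.91, 5.59 and 6.17 on PDA, 14.1, 21.6 and 4.69 on poplar wood and 10.5, 20.0 and 3.17 on Chinese fir wood. Rice straw lay far above all other libraries, while the woods overlapped with PDA. The log2 fold change on rice straw against PDA was 3.90, SE 0.54, adjusted p = 0.000229. CBH1 (A02916), described as Exoglucanase 1, belongs to the kind that cuts from the reducing end, the main cellulase of many fungi. It had 30.1, 41.4 and 38.0 FPKM on rice straw, 2.87, 3.15 and 3.45 on PDA, 4.82, 4.62 and 4.81 on poplar wood and 2.29, 2.93 and 3.01 on Chinese fir wood. Its change on rice straw was 3.16, SE 0.17, adjusted p = 5.23e-07, and the woods differed from PDA by 0.47 and -0.15, neither called. The 3 genes described as cellobiohydrolase B (cbhB), a related reducing-end enzyme of Aspergillus, did not behave alike. A03162 had 40.0, 36.4 and 39.8 FPKM on rice straw, 4.42, 6.28 and 7.05 on PDA, 5.51, 7.57 and 3.05 on poplar wood and 6.98, 9.82 and 2.90 on Chinese fir wood, a change of 2.54 on rice straw (adjusted p = 0.000246), with rice straw above and the 3 other groups overlapping. A14249 had 15.4, 13.7 and 15.5 FPKM on rice straw, 3.69, 3.79 and 4.73 on PDA, 6.56, 8.91 and 4.54 on poplar wood and 5.06, 7.42 and 2.69 on Chinese fir wood, a change of 1.65 (adjusted p = 0.00107). In it, too, rice straw lay above all other libraries, and replicate 3 of each wood was the only wood library that did not exceed every PDA library. The third, A17465, stayed between 0.431 and 1.80 FPKM in all 12 libraries and was called in no comparison.

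A second gene described as Exoglucanase 1, cbh1 (A03231), was lower in level and was the 1 cellobiohydrolase called on a wood. It had 5.10, 7.56 and 7.83 FPKM on rice straw, 1.10, 1.20 and 0.880 on PDA, 4.12, 3.58 and 1.96 on poplar wood and 1.61, 2.61 and 0.513 on Chinese fir wood. It rose by 1.91 on rice straw (adjusted p = 0.0006) and by 1.0 on poplar wood (adjusted p = 0.0211), at the edge of the fold threshold. The poplar call was lost in 5 of 19 alternatives, namely without the intermediate libraries, without poplar wood replicate 1 or 2 and without PDA replicate 1 or 3, with adjusted p-values up to 0.0938. Within Chinese fir wood the class varied widely: its sum was 27.9, 43.8 and 13.3 FPKM. Replicate 2 was highest and replicate 3 lowest in cel3, A03162, A14249 and cbh1, while CBH1 did not follow this order. Within poplar wood the sum was 36.9, 47.4 and 19.6 FPKM, again lowest in replicate 3.

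**Figure D3:**
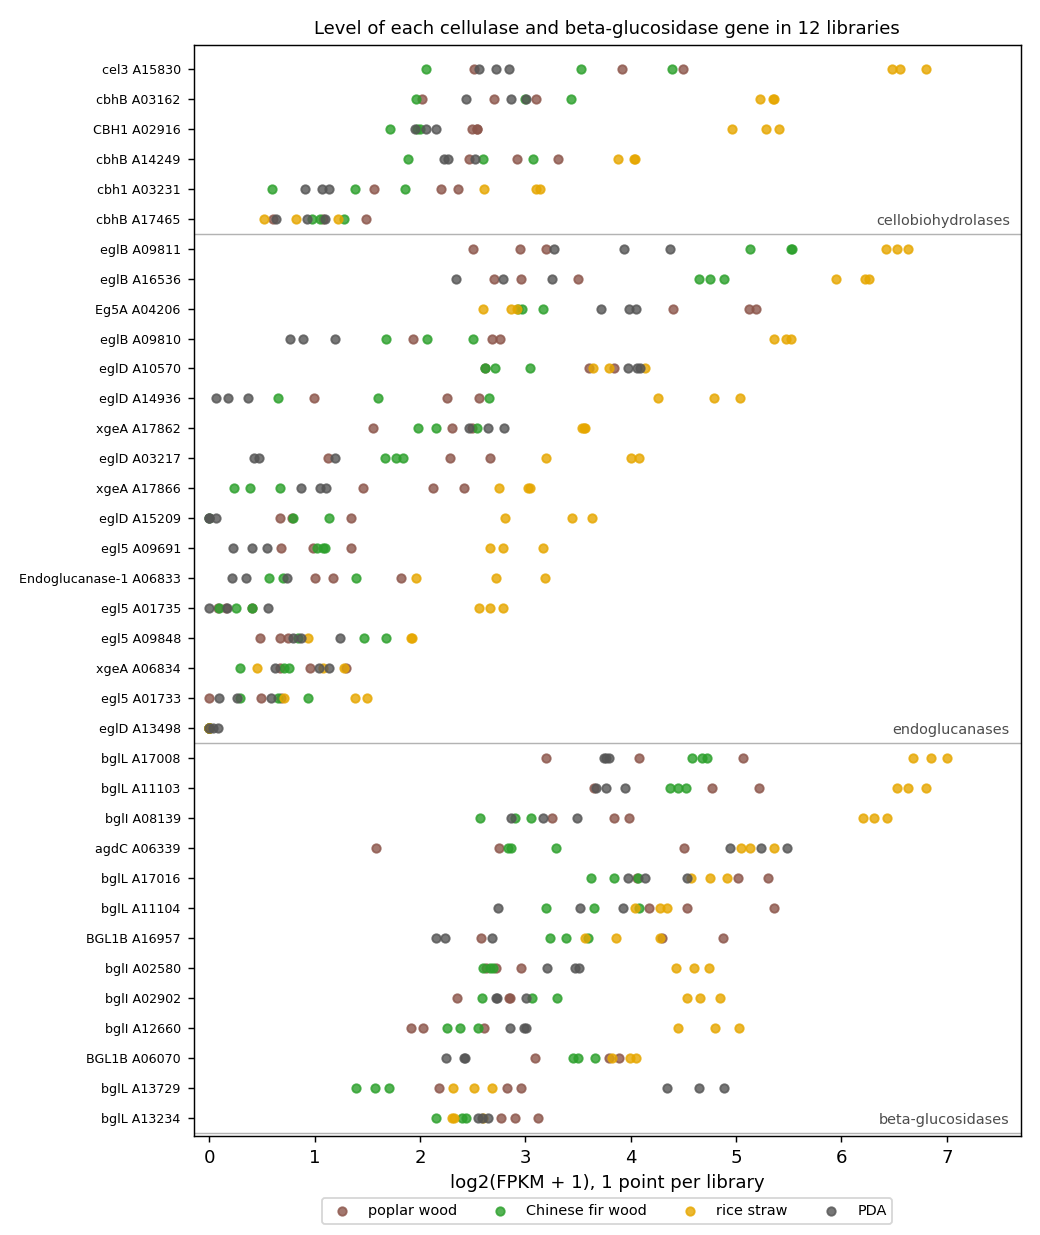
Level of each of the 36 genes as log2(FPKM + 1), with 1 point per library coloured by growth material and genes ordered by mean level within each class. In 22 genes all 3 rice straw points lie to the right of every other point.

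The 3 genes described as endo-beta-1,4-glucanase B (eglB) all rose on rice straw. A09811 had 98.4, 84.6 and 91.1 FPKM on rice straw, 19.7, 14.3 and 8.68 on PDA, 4.68, 6.74 and 8.18 on poplar wood and 45.1, 34.1 and 45.0 on Chinese fir wood. A16536 had 75.5, 60.6 and 73.8 FPKM on rice straw, 8.55, 5.92 and 4.08 on PDA, 6.76, 10.3 and 5.53 on poplar wood and 25.9, 24.1 and 28.5 on Chinese fir wood. In both, rice straw was highest and Chinese fir wood next, with no overlap. Poplar wood was below PDA in A09811 and overlapped with it in A16536. The changes on rice straw were 2.67 and 3.35 (adjusted p = 2.50e-05 and 3.10e-06), and on Chinese fir wood 1.53 and 1.97 (adjusted p = 0.000734 and 8.21e-05). Poplar wood stood apart from Chinese fir wood by -2.51 and -1.71 (adjusted p = 4.67e-05 and 0.000371), the 2 genes of the set that were called lower on poplar than on fir. Their gene models are long, 4548 and 5952 bp of coding length, against 1179 bp in the third, A09810. Whether these long models are correct was not tested, and A09811 alone made up 29.4% of the endoglucanase sum on rice straw.

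A09810 had 40.1, 45.0 and 43.3 FPKM on rice straw, 0.705, 0.856 and 1.29 on PDA, 5.78, 5.44 and 2.82 on poplar wood and 3.19, 4.67 and 2.20 on Chinese fir wood. It was near 1 FPKM on PDA and above every PDA library on each plant material. Its change on rice straw was 4.50, SE 0.26, adjusted p = 6.44e-07. It also rose by 1.51 on poplar wood (adjusted p = 0.000802, called in each of 19 alternatives) and by 1.13 on Chinese fir wood (adjusted p = 0.00402). The call on Chinese fir wood was lost without the intermediate libraries and without Chinese fir wood replicate 2, with adjusted p-values up to 0.0765.

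The 5 genes described as endo-beta-1,4-glucanase D (eglD) carry a name whose Aspergillus protein is now placed in a family of lytic polysaccharide monooxygenases, so the name does not tell whether they hydrolyse or oxidise. A14936 had 18.1, 31.9 and 26.6 FPKM on rice straw, 0.0437, 0.127 and 0.288 on PDA, 3.79, 4.90 and 0.989 on poplar wood and 2.03, 5.30 and 0.571 on Chinese fir wood. Rice straw was above all other libraries and PDA below all, and on PDA the gene rested on 11 reads over 3 libraries, and the rise on rice straw was 4.50, SE 0.48, adjusted p = 3.36e-05. A03217 had 8.19, 15.9 and 14.98 FPKM on rice straw, 0.342, 0.388 and 1.29 on PDA, 3.88, 5.33 and 1.18 on poplar wood and 2.42, 2.58 and 2.18 on Chinese fir wood, and rose by 3.06 on rice straw (adjusted p = 8.59e-05). Rice straw was again above all other libraries, and PDA replicate 3 reached into the poplar wood range. Both were also called on the woods, by 1.74 and 1.33 on poplar wood and by 1.44 and 1.06 on Chinese fir wood. These wood calls were lost in some alternatives, with adjusted p-values up to 0.078 and 0.0994 on poplar wood and up to 0.149 and 0.21 on Chinese fir wood. Without the intermediate libraries all 4 were lost, and without poplar wood replicate 2 both poplar calls. Leaving out PDA replicate 1 or 2, or Chinese fir wood replicate 1 or 2, ended both fir calls, and A03217 lost its fir call without Chinese fir wood replicate 3 and its poplar call without PDA replicate 1 or 2 and in a fit of these 2 groups alone.

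A15209, also eglD, was close to silent on PDA. It had 6.01, 11.4 and 9.85 FPKM on rice straw, 0, 0 and 0.0426 on PDA, 0.591, 1.54 and 0.725 on poplar wood and 0.735, 1.20 and 0 on Chinese fir wood. Every rice straw library was above the rest, and 2 PDA libraries and 1 Chinese fir wood library had no read. Rice straw held 710 reads and PDA 1 read, a ratio per library total of 626 with a 95% exact interval from 112 to 24740 that covers counting error only. Its fitted log2 fold change of 3.27 (adjusted p = 1.19e-05) is compressed by the added 1 FPKM. The gene passed the filter only with its rice straw libraries, so this p-value is not separate support for the rise. The last tested eglD gene, A10570, did not rise on rice straw. It had 16.0, 14.7 and 15.7 FPKM on PDA, 11.5, 16.6 and 12.9 on rice straw, 5.13, 11.2 and 13.4 on poplar wood and 5.54, 5.13 and 7.26 on Chinese fir wood, and fell by 1.25 on Chinese fir wood against PDA (adjusted p = 0.00351). That call was lost after median-of-ratios scaling (adjusted p = 0.0326, with the fold under the threshold) and without the intermediate libraries (adjusted p = 0.0658). The gene also had a log2 fold change of -1.07 on Chinese fir wood against rice straw (adjusted p = 0.0127), a call lost under the same 2 settings and without Chinese fir wood replicate 2 or rice straw replicate 2.

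Of the small endoglucanases described as Endoglucanase-5 (egl5) or Endoglucanase-1, with coding lengths of 582 to 741 bp, 3 rose on rice straw. A09691 (egl5) had 5.35, 5.90 and 7.96 FPKM on rice straw, 0.465, 0.170 and 0.329 on PDA, 0.977, 0.599 and 1.54 on poplar wood and 1.03, 1.14 and 1.11 on Chinese fir wood. A01735 (egl5) had 4.89, 5.91 and 5.36 FPKM on rice straw, 0.126, 0 and 0.476 on PDA, 0.118, 0.325 and 0.0596 on poplar wood and 0.196, 0.324 and 0.0636 on Chinese fir wood. A06833 (Endoglucanase-1) had 2.91, 8.13 and 5.58 FPKM on rice straw, 0.673, 0.272 and 0.158 on PDA, 1.26, 2.54 and 1.004 on poplar wood and 0.477, 1.63 and 0.620 on Chinese fir wood. In each, every rice straw library exceeded every other library, and they rose by 2.48, 2.43 and 2.19 (adjusted p = 4.92e-06, 2.49e-06 and 0.000415). A01735 passed the filter through rice straw alone, so its p-value is not separate support for the rise. The egl5 gene A09848 lay between 0.400 and 2.79 FPKM and was called in no comparison. At these levels a library held few reads: A01735 had 299 on rice straw and 10 on PDA over 3 libraries each.

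The xyloglucan-specific endoglucanases (xgeA) cut the beta-1,4 backbone of xyloglucan, a hemicellulose that coats cellulose. A17866 had 5.71, 7.14 and 7.25 FPKM on rice straw, 0.824, 1.15 and 1.07 on PDA, 3.36, 4.34 and 1.75 on poplar wood and 0.597, 0.176 and 0.311 on Chinese fir wood. Every library on poplar wood and rice straw lay above every library on Chinese fir wood and PDA. It rose by 1.93 on rice straw against PDA (adjusted p = 8.74e-05) and was higher on poplar than on Chinese fir wood by 1.57 (adjusted p = 0.000379). Against PDA its change of 0.99 on poplar wood missed the fold threshold (adjusted p = 0.00543). A17862 had 10.9, 10.8 and 10.6 FPKM on rice straw, 5.94, 5.27 and 4.53 on PDA, 3.94, 4.63 and 1.94 on poplar wood and 3.46, 4.82 and 2.96 on Chinese fir wood. Rice straw was above all other libraries, but the change of 0.92 against PDA missed the fold threshold (adjusted p = 0.0122), and the gene was called against the woods only (-1.44 for poplar wood and -1.33 for Chinese fir wood against rice straw). A06834 stayed between 0.221 and 1.46 FPKM and was called nowhere.

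Eg5A (A04206), described as a manganese-dependent endoglucanase after a Phanerochaete protein, had the reverse pattern. It stood at 20.1, 35.4 and 33.8 FPKM on poplar wood, 5.06, 6.59 and 6.27 on rice straw, 12.1, 14.8 and 15.6 on PDA and 6.64, 8.01 and 6.80 on Chinese fir wood. All poplar wood libraries were above all others, and rice straw and Chinese fir wood lay below PDA. It was higher on poplar wood by 1.88 than on Chinese fir wood and by 2.11 than on rice straw (adjusted p = 8.56e-05 and 2.05e-05). On rice straw it fell by 1.12 against PDA (adjusted p = 0.00242), a call lost after median-of-ratios scaling (adjusted p = 0.0041, with the fold under the threshold) and without the intermediate libraries (adjusted p = 0.0756). The change of 0.99 on poplar wood against PDA missed the fold threshold (adjusted p = 0.00412). The pathway given for this gene of 4686 bp is ribosome biogenesis, which does not go with an endoglucanase, and its enzyme name is therefore uncertain.

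Among the 13 beta-glucosidases 8 rose on rice straw and 1 fell against PDA. The 6 genes described as beta-glucosidase L (bglL), an extracellular enzyme of Aspergillus, went in different directions. A17008, the most abundant member of the whole set by its mean, had 128, 101 and 115 FPKM on rice straw, 12.9, 12.6 and 12.4 on PDA, 8.14, 32.6 and 15.9 on poplar wood and 22.9, 25.4 and 24.5 on Chinese fir wood. A11103 had 111, 91.4 and 97.9 FPKM on rice straw, 12.6, 11.7 and 14.4 on PDA, 11.6, 36.2 and 26.3 on poplar wood and 20.9, 21.97 and 19.7 on Chinese fir wood. Rice straw was above every other library in both, and they rose by 3.08 and 2.86 (adjusted p = 5.14e-05 and 3.84e-05). On Chinese fir wood every library exceeded every PDA library, but the changes of 0.89 and 0.66 were not called (adjusted p = 0.0494 and 0.0964).

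A13729 (bglL) was highest on PDA, with 28.6, 24.1 and 19.3 FPKM on PDA, 3.99, 5.44 and 4.69 on rice straw, 6.08, 6.80 and 3.53 on poplar wood and 1.97, 2.26 and 1.62 on Chinese fir wood. All PDA libraries lay above all others, and it fell by 3.07 on Chinese fir wood, 2.12 on rice straw and 1.97 on poplar wood on the log2 scale (adjusted p = 1.70e-06, 4.38e-05 and 5.52e-05). These 3 calls held in each of the 19 alternatives. Its difference of 1.10 between poplar and Chinese fir wood (adjusted p = 0.0031) lost its call after median-of-ratios scaling and without poplar wood replicate 2. A13234, a bglL gene of the same coding length of 2295 bp, stayed between 3.44 and 7.67 FPKM and was called in no comparison. A11104 was highest on poplar wood, with 22.2, 40.0 and 17.1 FPKM on poplar wood, 19.4, 15.5 and 18.4 on rice straw, 5.69, 10.4 and 14.2 on PDA and 11.6, 15.9 and 8.16 on Chinese fir wood. It rose by 1.30 against PDA (adjusted p = 0.0117) and by 1.05 against Chinese fir wood (adjusted p = 0.0332). Both calls were lost in a fit of only the 2 groups compared, without the intermediate libraries and without poplar wood replicate 2, with adjusted p-values up to 0.0712 and 0.145. The first was also lost without PDA replicate 1, and the second without Chinese fir wood replicate 1 or 3 and after median-of-ratios scaling. A17016 had 31.5, 38.5 and 15.6 FPKM on poplar wood, 29.2, 22.9 and 26.0 on rice straw, 14.8, 16.5 and 22.2 on PDA and 13.3, 15.8 and 11.3 on Chinese fir wood. The groups overlapped, apart from rice straw above PDA and Chinese fir wood, and it was called in no comparison.

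The 4 genes described as beta-glucosidase I (bglI) all rose on rice straw. A08139 had 72.8, 85.5 and 78.5 FPKM on rice straw, 6.28, 8.01 and 10.2 on PDA, 14.8, 13.3 and 8.56 on poplar wood and 6.46, 4.92 and 7.28 on Chinese fir wood, and rose by 3.14, SE 0.24, adjusted p = 2.63e-06. Rice straw was above all other libraries, and the woods overlapped with PDA. A02902 had 22.2, 27.7 and 24.2 FPKM on rice straw, 5.61, 5.65 and 7.03 on PDA, 4.10, 6.21 and 6.17 on poplar wood and 7.35, 4.998 and 8.82 on Chinese fir wood. A12660 had 20.9, 31.5 and 26.9 FPKM on rice straw, 6.94, 7.03 and 6.24 on PDA, 2.77, 5.10 and 3.09 on poplar wood and 4.84, 4.19 and 3.77 on Chinese fir wood. A02580 had 20.6, 25.8 and 23.3 FPKM on rice straw, 10.4, 10.1 and 8.22 on PDA, 5.60, 6.77 and 5.19 on poplar wood and 5.35, 5.06 and 5.49 on Chinese fir wood. In all 4 genes each rice straw library exceeded every other library. The last 3 rose by 1.86, 1.81 and 1.20 (adjusted p = 7.81e-05, 8.48e-05 and 0.000285). On the woods none of the 4 was called against PDA, with changes from -0.77 to 0.52.

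BGL1B is named after a Phanerochaete beta-glucosidase, and 1 of its genes rose on all 3 plant materials. Its 2 genes were the only members whose annotation lacked the term extracellular region, which the other 34 carried. A06070 had 13.1, 14.9 and 15.6 FPKM on rice straw, 4.40, 4.35 and 3.74 on PDA, 13.8, 12.9 and 7.50 on poplar wood and 9.91, 10.3 and 11.6 on Chinese fir wood. Every library on a plant material exceeded every PDA library, and it rose by 1.59, 1.22 and 1.17 on rice straw, poplar wood and then Chinese fir wood (adjusted p = 0.000181, 0.000836 and 0.0009), each called in all 19 alternatives. A16957 had 10.9, 18.4 and 13.5 FPKM on rice straw, 3.45, 3.71 and 5.40 on PDA, 28.3, 18.6 and 4.99 on poplar wood and 9.49, 8.41 and 11.1 on Chinese fir wood. Poplar wood ran from within the PDA range to the highest level of all, and the 2 other plant materials lay above PDA. It rose by 1.55 on rice straw and 1.56 on poplar wood (adjusted p = 0.0191 and 0.016), and its change of 1.05 on Chinese fir wood was not called (adjusted p = 0.0714). Both calls of A16957 were lost without the intermediate libraries and without PDA replicate 1 or 2, with adjusted p-values up to 0.168 on rice straw and 0.102 on poplar wood. The rice straw call was also lost without rice straw replicate 2 or 3, and the poplar call without poplar wood replicate 2 and in a fit of these 2 groups alone.

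The description alpha/beta-glucosidase agdC (A06339) names an enzyme that also acts on alpha-linked glucosides such as maltose, and its annotation lacks the term for cellulose breakdown. It had 43.7, 36.6 and 29.7 FPKM on PDA, 32.0, 40.0 and 34.1 on rice straw, 1.99, 5.72 and 21.8 on poplar wood and 6.13, 8.80 and 6.30 on Chinese fir wood. Rice straw and PDA overlapped and the woods were lower, with poplar wood spread widely. It fell by 2.27 on poplar wood and 2.22 on Chinese fir wood (adjusted p = 0.00492 and 0.00466), and the Chinese fir wood call was lost without the intermediate libraries (adjusted p = 0.0694).

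**Figure D4:**
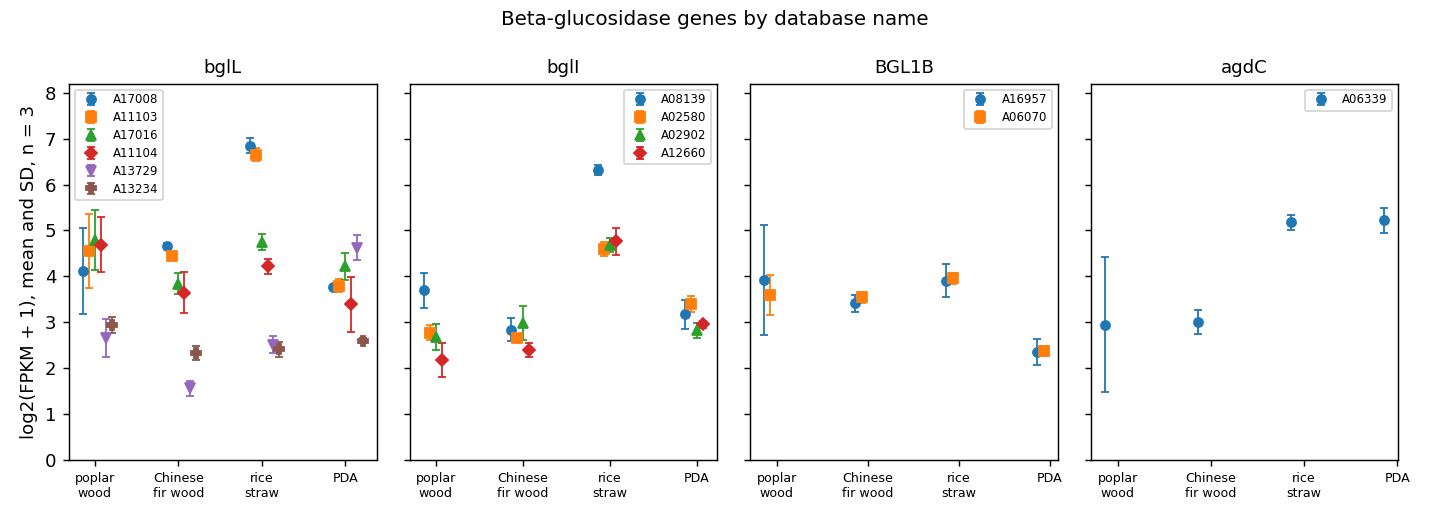
Mean and SD of log2(FPKM + 1) of the 13 beta-glucosidase genes in each group (n = 3), split by database name. The bglI genes and 2 of the bglL genes peak on rice straw, A13729 peaks on PDA, and the means of both BGL1B genes lie above PDA on every plant material.

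Other genes of cellulose use were taken from lists of descriptions. Of 10 genes of lytic polysaccharide monooxygenases (polysaccharide monooxygenase Cel61a or Endoglucanase-4) 0 rose and 0 fell on rice straw against PDA (limma, median -0.15). At an unadjusted p under 0.05, 0 were higher and 2 lower, and voom called 0. On poplar wood 2 rose and 1 fell (median 0.09), and on Chinese fir wood 0 rose, also 0 at an unadjusted p under 0.05 and 0 with voom, and 2 fell (median -0.45). Over all tested genes 6.81% were called higher and 14.1% lower on rice straw. The shares were 8.3% higher and 17.1% lower on poplar wood and 5.91% higher and 24.5% lower on Chinese fir wood. The eglD genes, which may also be monooxygenases, are not among these 10. Of the 4 tested eglD genes, 3 rose and 0 fell on rice straw against PDA (median 3.17). The 10 genes therefore do not show how all oxidising enzymes responded. Cel61a (A16833) had 358, 445 and 239.8 FPKM on poplar wood, 109.5, 129 and 121 on rice straw, 85.7, 107 and 127 on PDA and 81.7, 81.0 and 81.7 on Chinese fir wood. Poplar wood was above every other library (log2 fold change against PDA 1.67, SE 0.23, adjusted p = 0.000134). Of the genes that fell, A16827 on poplar wood and A00612 on Chinese fir wood, both described as Endoglucanase-4, changed by -1.08 and -1.17 (adjusted p = 0.0175 and 0.00296). The single gene described as a cellobiose dehydrogenase, an enzyme that oxidises cellobiose, was A14209. It was highest on PDA, with 17.6, 15.6 and 12.01 FPKM. It had 4.32, 10.1 and 7.68 on rice straw, 3.62, 1.94 and 1.62 on poplar wood and 0.778, 0.981 and 0.515 on Chinese fir wood. It fell by 2.27 on poplar wood and 3.19 on Chinese fir wood (adjusted p = 9.39e-05 and 6.34e-06). Every rice straw library was also below every PDA library, but the change of -0.99 missed the fold threshold and was not called.

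Among 22 tested genes of sugar uptake (lactose, hexose and glucose transporters by description) 8 rose and 2 fell on rice straw, 3 and 2 on poplar wood, and 2 and 9 on Chinese fir wood, with medians of 0.16, -0.41 and -0.85. Over all tested genes the called shares were 6.81% higher and 14.1% lower on rice straw, 8.3% higher and 17.1% lower on poplar wood and 5.91% higher and 24.5% lower on Chinese fir, and the medians -0.25, -0.18 and -0.51. The lactose permease LAC12 (A09461), named after a yeast carrier of the disaccharide lactose, had 461, 370.0 and 404 FPKM on rice straw, 193, 169 and 224 on Chinese fir wood, 108, 155 and 176 on poplar wood and 45.9, 40.5 and 34.9 on PDA. All rice straw libraries were above and all PDA libraries below the rest, and the change on rice straw was 3.32 (SE 0.21, adjusted p = 1e-06). The low-affinity glucose transporter RAG1 (A13679) fell by 1.10 on poplar wood, mfs1 (A04975) by 1.59 on Chinese fir wood and the high-affinity transporter ght2 (A18065) by 1.04 on rice straw (adjusted p = 0.000317, 5.28e-05 and 0.000666). Hexokinase HXK2 (A02688), which phosphorylates glucose, fell by 1.93 on poplar wood, and glucokinase glkA (A07772) by 1.10 on Chinese fir wood (adjusted p = 8.74e-05 and 0.0132). Of the 2 regulators of glucose repression in the annotation, the kinase SNF1 (A08401) fell by 1.17 on Chinese fir wood (adjusted p = 0.000321), and creC (A10683) was called on none. No gene was described as an expansin or a swollenin, and genes without a description could not be searched.

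The beta-1,3 and beta-1,6 glucan hydrolases, which resemble the set in name but act on beta-1,3 and beta-1,6 glucans such as those of fungal walls, are given for comparison. Of 24 tested, 1 rose and 2 fell on rice straw (median -0.19), 4 rose and 6 fell on poplar wood (median -0.19) and 2 rose and 5 fell on Chinese fir wood (median -0.40). The shares over all tested genes were 6.81% higher and 14.1% lower on rice straw, 8.3% higher and 17.1% lower on poplar and 5.91% higher and 24.5% lower on fir, with medians of -0.25, -0.18 and -0.51. The gene that rose on rice straw was the endo-1,6-beta-glucanase neg-1 (A10563), by 1.64 (adjusted p = 0.00279), and the more abundant of those that fell was A08048, by 1.13 (adjusted p = 0.000201). On poplar wood the most abundant that rose was A05381, by 1.57, and that fell exgD (A01354), by 1.11 (adjusted p = 0.0212 and 0.00349). On Chinese fir wood these were A16559, which rose by 1.31, and A00491, which fell by 1.44 (adjusted p = 0.000338 and 0.00197).

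Several names were shared by several genes, among them 6 bglL, 5 eglD, 4 bglI and 4 egl5, and some have equal coding lengths (A02580 and A12660, the BGL1B genes, and A13729 and A13234). How reads that match more than 1 such copy were counted is not stated in the labels or the file, so levels of single genes within a name are less certain than those of the name as a whole.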

How the data were processed

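RNA of Peniophora incarnata T-7 mycelium was sequenced from 12 libraries, 3 in each of 4 groups. The authors deposited 1 table of FPKM values per gene with database descriptions, symbols, GO terms and pathway names. The submitters' processing notes name fastp, HISAT2, HTSeq and DESeq2. Their settings, the genome build, the strand setting of the counting and the treatment of reads that match several genes are not given in the sources used here. In every gene the 12 FPKM values were whole multiples of 1 read within a tolerance of 1e-06, for a gene length that is a multiple of 3, so lengths are called coding lengths and the library totals of 23398461 to 31132066 reads are worked back from these steps. Listed genes held 99.7% to 100.0% of these totals.

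Genes that reached 1 FPKM in 3 or more libraries were tested in R 4.3.3 with limma 3.58.1 on log2(FPKM + 1), with trend and all 12 libraries in 1 fit. Fold changes are on that scale, which understates changes of low genes. Calls needed a p-value under 0.05 after Benjamini-Hochberg adjustment across the tested genes and a log2 fold change of 1 or more in size. The fit was also run on simulated data with the same spread in every library and changes on rice straw only. It therefore does not test the wider spread within poplar wood, and no conclusion is drawn from it. Tables and figures were made with Python 3.11.15. The 19 alternatives were a pseudocount of 0.1, no filter, median-of-ratios scaling, a fit of only the 2 groups compared, a replicate block, voom on the worked-back reads, the fit without the 3 intermediate libraries, and leaving out each of the 12 libraries. Class totals are sums of FPKM with no test. The exact interval of a ratio of reads is a 95% Clopper-Pearson interval and covers counting error only.

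The genes and lists were chosen with earlier results of these data known. Values in every library are given for the 10 genes of highest mean FPKM and for every member called in at least 1 of the 6 comparisons. Of each neighbouring list the most abundant gene that rose and that fell in a comparison against PDA is named. The labels call the replicates biological but do not say how cultures were separated. The p-values test group differences against the spread between these samples only. No sequences were used here.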

Additional observations from a re-analysis of the deposited data

How the results depend on the processing

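No called result reversed under any of the 19 alternatives. Of the members' log2 fold changes under the alternatives, 3743 stayed on their side of the call, 67 lost a call and 66 gained one. The counts of members that moved by over 1.5 times were as follows. On poplar wood against PDA, the number that rose (7) was 12 with a pseudocount of 0.1 and with voom, 4 in a fit of the 2 groups alone, 3 without the 3 intermediate libraries, and 2 to 10 with 1 library left out. On Chinese fir wood against PDA, the number that rose (6) was 3 without the intermediate libraries and 3 to 7 with 1 library left out, and the number that fell (3) was 1 without the intermediate libraries. On rice straw against PDA, the number that fell (2) was 1 after median-of-ratios scaling and 1 without the intermediate libraries. On poplar against Chinese fir wood, the number higher (4) was 2 after median-of-ratios scaling and 2 to 7 with 1 library left out. For these the cause was not tested. Median-of-ratios scaling shifted the median log2 fold change of all genes against PDA from -0.18, -0.51 and -0.25 to 0.02, -0.02 and -0.01 on poplar wood, on fir wood and on rice straw, in this order. The members' medians became 0.64, 0.61 and 2.07, and 9, 9 and 25 members rose. With the replicate block the counts that rose against PDA were 7, 6 and 23, and 31 members passed the F test against 32 without it. Samples with the same replicate number did not deviate together, with correlations of -0.192 to 0.327 over 18 pairs, so the numbers do not pair the samples. Genes near 1 FPKM rest on few reads, and 3 libraries a group limit the precision of every spread.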
